A study of Mus musculus with 6 samples.

Results

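The IL-4 receptor and STAT6 pathway was followed through 10 of its genes in activated B cells of mice with and without *Tent5c*. They are the receptor chains *Il4ra* and *Il2rg*, the kinases *Jak1* and *Jak3*, the transcription factor *Stat6*, and the IL-4 induced genes *Socs1*, *Cish*, *Il4i1*, *Fcer2a* and *Batf*. They were taken by name, without a rule on their values, from the 54446 genes in the table of normalized counts. All 10 lay above the minimum mean of 10 normalized counts that 12322 genes passed. Naive B cells were taken from spleens by negative selection and cultured for 7 days with LPS at 20 µg/ml and IL-4 at 20 ng/ml. There were 3 libraries labelled KO and 3 labelled WT, from mice of the mixed strain C57BL/6J X CBA, aged 12 to 15 weeks and bred from heterozygous parents. Each replicate number stood for 1 KO and 1 WT littermate, called a pair here. Every library was stimulated, so levels without IL-4 were not analysed here and the values describe the stimulated state alone.

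IL-4 binds the receptor chain IL-4Rα, which in lymphocytes pairs with the common gamma chain. The kinases JAK1 and JAK3, bound to the chains, phosphorylate the receptor tail, STAT6 docks there, is phosphorylated itself, and moves to the nucleus as a dimer. In B cells STAT6 drives germline transcription ahead of switching to IgG1 and IgE and raises CD23 and MHC class II, while SOCS proteins made in response to cytokines damp the kinases.

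The libraries held 5393558 to 6793520 fragments in genes, and 3 fragments were worth 2.72 to 3.61 normalized counts. *Tent5c* was at 1255, 767 and 1585 normalized counts in WT replicates 1, 2 and 3, and at 1993, 993 and 1170 in KO. This sum over the whole gene did not separate the genotypes, and the structure of the KO allele is not given in the sources used here, so genotypes are those of the labels. *Xist* was at 11610 and 11636 in the libraries of pair 2 and at most 6.61 in the others, and the Y-linked genes *Ddx3y*, *Eif2s3y*, *Kdm5d* and *Uty* were at 0 in pair 2 only. Sex, litter, culture and library batch therefore cannot be told apart between pair 2 and the other pairs, while KO and WT were matched within each pair. All 6 B cell markers were measured, and they summed to 27594 to 31710 in WT and to 28824 to 32723 in KO. The 6 plasma cell markers summed to 9078 to 19822 in WT and to 9457 to 17049 in KO, with both libraries of pair 2 lowest. Of 10 T cell markers 3 passed the minimum, with sums of 469 to 569 in WT and 468 to 564 in KO, nearly all of it *Thy1* and *Lck*, while *Cd3d*, *Cd3e* and *Cd3g* were at most 9.63. Of 10 myeloid markers 3 passed, with sums of 117 to 166 and 67.7 to 158, and *S100a8*, *S100a9* and *Fcgr1* were at 0 in every library. The 6 mast cell and basophil markers summed to at most 13.2, the 6 NK cell markers to at most 67.2 and the 7 erythroid markers to at most 4.72. In such bulk samples fewer cells of a type and less RNA per cell cannot be told apart.

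Promoter sequence was read for all 10 genes, as windows from 250 bases before to 50 bases after each of their 12 start sites in RefSeq (build GRCm38.p6), on both strands. STAT6 dimers prefer TTCNNNNGAA, with 4 bases between the arms, and STAT5 and most other STATs prefer TTCNNNGAA, with 3. The first was found at 1 of 12 starts, an internal start of *Fcer2a*, against 6.94% of all 32817 promoter windows. The second was also found at 1 of 12 starts, that of *Cish*, against 8.29% of all windows. The *Fcer2a* stretch is chr8:3690862-3691111, minus strand, directly before the internal start at 3690861, and its match begins 168 bases before that start. For comparison, the outermost start of the same gene is given by chr8:3694176-3694424, minus strand, which holds neither motif. The *Cish* stretch is the 30 bases chr9:107296659-107296688, plus strand, with matches that begin at the first and the 12th base of the RefSeq transcript. This start lies inside the Gencode gene, which begins at 107296026. The sequences run 5′ to 3′ and capitals mark the motif matches, which are descriptions of the letters and not binding sites.
Fcer2a internal start: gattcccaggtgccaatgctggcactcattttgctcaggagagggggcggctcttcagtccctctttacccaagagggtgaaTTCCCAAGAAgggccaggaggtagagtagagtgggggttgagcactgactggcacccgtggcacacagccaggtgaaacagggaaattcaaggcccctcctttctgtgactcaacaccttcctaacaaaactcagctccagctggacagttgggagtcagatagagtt
Fcer2a outermost start: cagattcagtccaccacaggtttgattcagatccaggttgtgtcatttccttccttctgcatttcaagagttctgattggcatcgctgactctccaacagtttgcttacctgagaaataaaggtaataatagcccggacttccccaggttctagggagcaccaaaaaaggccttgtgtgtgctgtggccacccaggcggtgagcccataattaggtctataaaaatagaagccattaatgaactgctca
Cish start: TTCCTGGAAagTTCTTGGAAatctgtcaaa

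The comparison of KO with WT asked whether expression of the pathway differed in B cells without TENT5C. None of the 10 genes passed an adjusted p of 0.05, in a table where limma called 0 of 12322 genes (0.0%). The members' log2 fold changes, KO minus WT on log2(normalized count + 1), ran from −0.29 for *Cish* to 0.17 for *Fcer2a*, with a median of 0.03 beside 0.00067 over all genes tested. At an unadjusted p under 0.05 limma gave 1 of the 10, *Il4ra*, against 4.7% of all genes. *Il4ra*, *Socs1*, *Cish* and *Il4i1* were lower in KO in all 3 pairs, 4 of 10 beside 13.1% of all genes. *Fcer2a* alone was higher in all 3 pairs, 1 of 10 beside 11.7% of all genes. The KO and WT values overlapped for all 10 members. They did not overlap for 6.83% of all genes, a share that 10 genes are too few to tell from 0. On fragment counts recovered from the table, neither edgeR nor DESeq2 called a member at an adjusted p of 0.05, and over all genes DESeq2 called 22 lower and 1 higher while edgeR called 0. At an unadjusted p under 0.05, 373 genes were lower and 206 higher by limma, and 368 and 200 by edgeR.

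**Figure D1:**
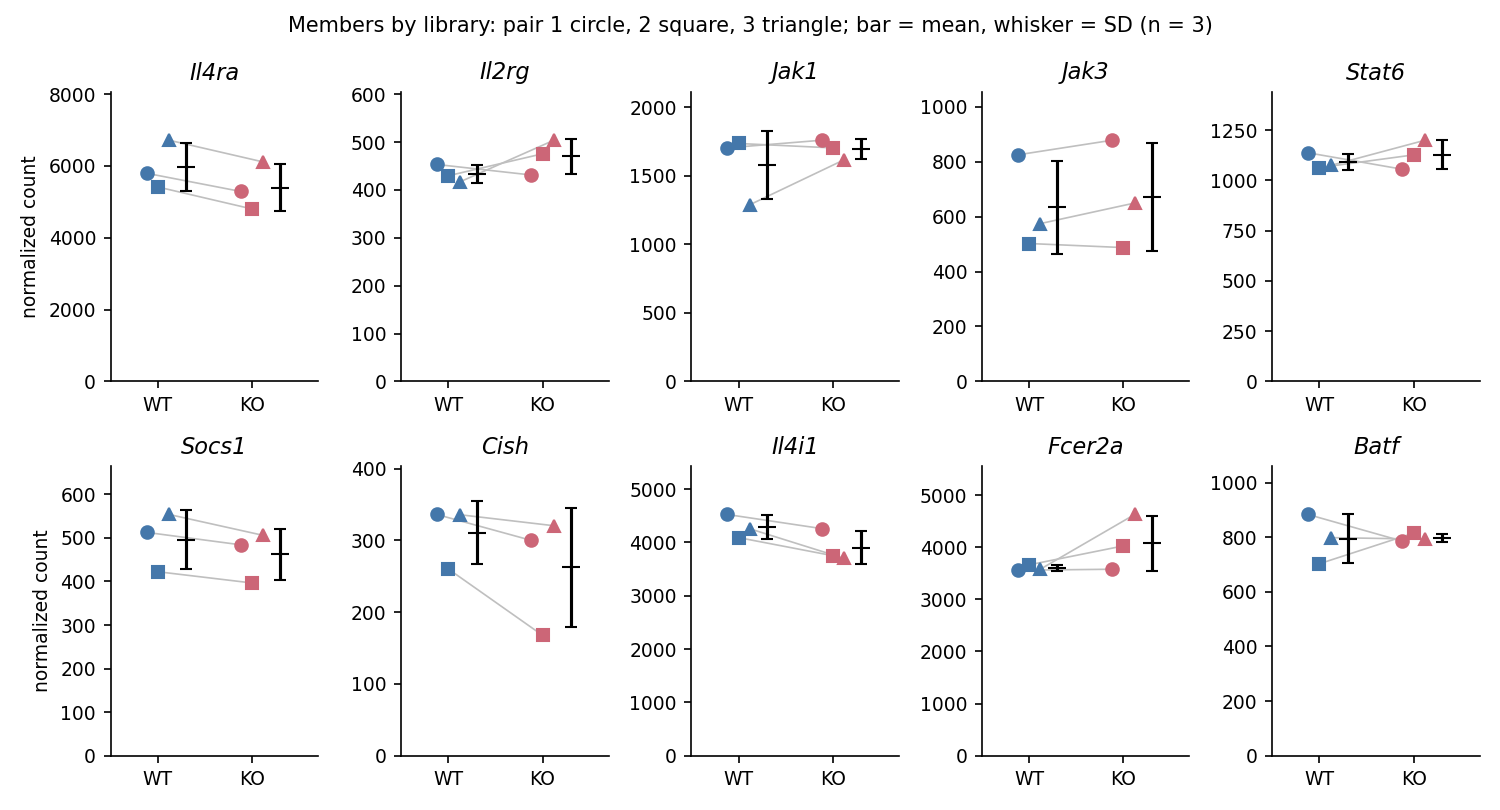
Normalized counts (vertical axes, from 0) of the 10 members in the WT (blue) and KO (red) libraries, with pair 1 as circles, pair 2 as squares and pair 3 as triangles, grey lines joining littermates, and black bars for the mean and SD of 3 libraries. The lines of *Il4ra*, *Socs1*, *Cish* and *Il4i1* fall in every pair, and the WT and KO points overlap in range for every gene.

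*Il4ra* encodes IL-4Rα, the chain that binds IL-4 and carries the docking sites of STAT6. It spans chromosome 7 from 125552120 to 125579474 on the plus strand (GRCm38, Gencode vM21), as do the other coordinates below. It was at 5795, 5413 and 6714 normalized counts in WT replicates 1, 2 and 3, and at 5287, 4799 and 6107 in KO. Each KO library was below its littermate, although the groups overlapped because the pairs differed. The mean was 5974 ± 669 (SD, n = 3) in WT and 5398 ± 661 in KO. In pairs 1, 2 and 3 the log2 ratios were −0.13, −0.17 and −0.14, the closest agreement between pairs of any member, and the 95% counting interval of each lay below 0. These intervals are exact Clopper-Pearson intervals on recovered fragments and cover counting error only. The log2 fold change was −0.15 (SE 0.057, 95% interval −0.29 to −0.0095), with an unadjusted p of 0.0396 and an adjusted p of 0.970 by limma.

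*Il2rg* encodes the common gamma chain, which IL-4Rα shares with the receptors of IL-2, IL-7, IL-9, IL-15 and IL-21. It lies on chromosome X from 101264378 to 101268255, minus strand, and 30.5% of its exon bases also belong to *Gm20489* on the same strand, where featureCounts by default leaves out fragments that fit both genes. It was at 453, 430 and 417 normalized counts in WT and at 431, 476 and 504 in KO. The KO library was lower in pair 1 and higher in pairs 2 and 3, and the log2 ratios were −0.07, 0.15 and 0.27. Over the pairs it differed by 0.12 on the log2 scale (SE 0.090, 95% interval −0.10 to 0.33, adjusted p = 0.970 by limma). Pair 2, the one with *Xist*, had a pair mean of 453, between the 442 of pair 1 and the 460 of pair 3.

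*Jak1* (chromosome 4, 101152367 to 101265282, minus strand) encodes the kinase bound to IL-4Rα. It was at 1703, 1735 and 1288 normalized counts in WT and at 1758, 1702 and 1616 in KO. WT replicate 3 was the lowest library and stood apart from the other 5. Its log2 ratios were 0.05, −0.03 and 0.33, and the counting interval of pair 3 alone lay off 0, so the fold change of 0.12 (SE 0.083, 95% interval −0.08 to 0.31, adjusted p = 0.970 by limma) came mainly from that pair. Without pair 3 it was 0.0096.

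*Jak3* (chromosome 8, 71676296 to 71690575, plus strand) encodes the kinase bound to the common gamma chain, and 7.55% of its exon bases are shared with *Insl3*. It was at 824, 502 and 574 normalized counts in WT and at 878, 487 and 649 in KO. Littermates were close to each other while the pairs lay apart, with pair 1 high in both genotypes. The log2 ratios were 0.09, −0.04 and 0.18, and the log2 fold change was 0.07 (SE 0.074, 95% interval −0.10 to 0.25, adjusted p = 0.970 by limma).

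*Stat6* (chromosome 10, 127642986 to 127660957, plus strand) encodes the factor that the receptor activates. It was at 1137, 1063 and 1074 normalized counts in WT and at 1055, 1127 and 1199 in KO. It was the steadiest member, with a coefficient of variation of 5.02% over the 6 libraries. The KO library was lower in pair 1 and higher in pairs 2 and 3, with log2 ratios of −0.11, 0.08 and 0.16. By limma the difference was 0.04 on the log2 scale (SE 0.074, 95% interval −0.13 to 0.22, adjusted p = 0.974).

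*Socs1* (chromosome 16, 10782240 to 10785536, minus strand) encodes a direct inhibitor of JAK kinases. It was at 513, 422 and 554 normalized counts in WT and at 484, 397 and 506 in KO. Both libraries of pair 2 were lowest and each KO library was below its littermate. Ratios on the log2 scale were −0.08, −0.09 and −0.13, each with a counting interval that included 0. Its log2 fold change was −0.10 (SE 0.069, 95% interval −0.27 to 0.07, adjusted p = 0.970 by limma).

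*Cish* (chromosome 9, 107296026 to 107302784, plus strand) encodes CIS, a SOCS family inhibitor best known as a target of STAT5. Its RefSeq start holds the paired 3-base-spaced matches printed above. It was at 336, 260 and 336 normalized counts in WT and at 300, 168 and 321 in KO. The KO library of pair 2 was the lowest and stood apart from the other 5. The log2 ratios were −0.16, −0.63 and −0.07, and the counting interval lay off 0 in pair 2 alone. The log2 fold change of −0.29 (SE 0.126, 95% interval −0.59 to 0.02) was the most negative of the members, with an unadjusted p of 0.0595 and an adjusted p of 0.970 by limma, and without pair 2 it was −0.12.

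*Il4i1* encodes a secreted L-amino acid oxidase that IL-4 induces in B cells. It lies on chromosome 7 from 44816387 to 44840809 on the plus strand. Genes on the other strand, *Atf5* and *Tbc1d17*, cover 85.9% of its exon bases, and the authors counted by strand. It was at 4523, 4089 and 4254 normalized counts in WT and at 4258, 3750 and 3699 in KO. Each KO library was below its littermate, and only KO replicate 1 reached into the WT range. The log2 ratios were −0.09, −0.12 and −0.20, and all 3 counting intervals lay below 0. The log2 fold change was −0.14 (SE 0.059, 95% interval −0.28 to 0.0040), with an unadjusted p of 0.0551 and an adjusted p of 0.970 by limma.

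*Fcer2a* (chromosome 8, 3681737 to 3694175, minus strand) encodes CD23, the low-affinity IgE receptor and a classic STAT6-dependent surface protein of B cells. It was at 3557, 3660 and 3577 normalized counts in WT and at 3577, 4024 and 4627 in KO. The WT libraries were nearly equal, KO replicate 1 lay among them, and KO replicates 2 and 3 were above all of them. The mean was 3598 ± 55.0 (SD, n = 3) in WT and 4076 ± 527 in KO. By pair, the log2 ratios were 0.01, 0.14 and 0.37, and the counting intervals of pairs 2 and 3 lay above 0. The log2 fold change was 0.17 (SE 0.081, 95% interval −0.02 to 0.37), with an unadjusted p of 0.0750 and an adjusted p of 0.970 by limma.

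*Batf* (chromosome 12, 85686669 to 85709087, plus strand) encodes an AP-1 family factor that binds with IRF4 and is needed for class switching. It was at 883, 703 and 798 normalized counts in WT and at 785, 815 and 793 in KO. The KO libraries lay inside the WT range, lower than the littermate in pair 1, higher in pair 2 and nearly equal in pair 3. The log2 ratios were −0.17, 0.21 and −0.01, and the counting intervals of pairs 1 and 2 lay off 0 on opposite sides. Its log2 fold change was 0.01 (SE 0.087, 95% interval −0.20 to 0.22, adjusted p = 0.993 by limma).

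Over the 10 genes and 3 pairs, 15 of 30 ratios had a counting interval that excluded 0, with 3 in pair 1, 5 in pair 2 and 7 in pair 3. *Il4ra* and *Il4i1* gave 6 of these 15, with the same sign in every pair, while *Batf* gave 1 on each side of 0. The same share over all genes was not computed, so these counts do not set the members apart. Such intervals narrow as fragments rise. For pair 3, *Il4ra* at −0.14 on 6726 KO and 5576 WT fragments excluded 0, while *Socs1* at −0.13 on 557 and 460 did not. Over all genes, the chi-square per gene between littermates was 5.62, 4.44 and 16.2 in pairs 1, 2 and 3. For pairs 1, 2 and 3 the median ratio of the 10 members was −0.08, −0.04 and 0.07, so the middle of the list did not lie on one side of 0. In pair 3, the KO library was higher for *Il2rg*, *Jak1*, *Jak3*, *Stat6* and *Fcer2a*, and lower for the other 5 members.

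**Figure D2:**
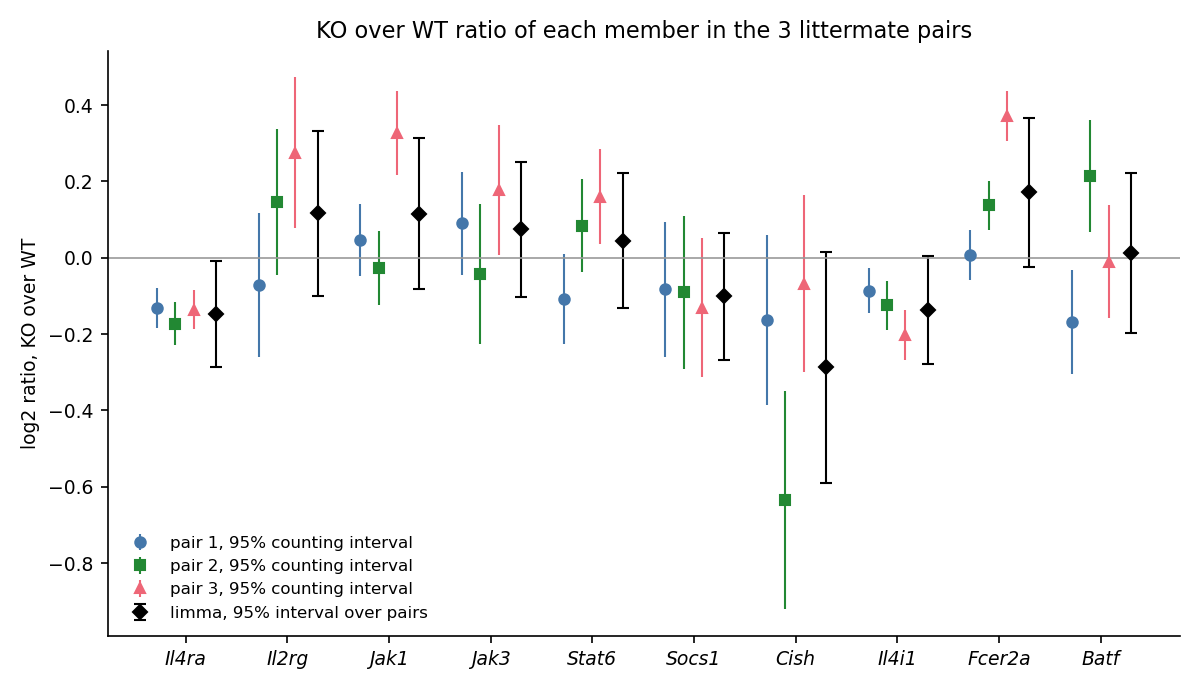
Log2 ratio of KO over WT (vertical axis) for each member in pair 1 (circles), pair 2 (squares) and pair 3 (triangles) with 95% counting intervals, and the limma log2 fold change with its 95% interval over pairs (black diamonds). *Il4ra* and *Il4i1* have all 3 counting intervals below 0, *Cish* rests on pair 2, *Fcer2a* runs from 0.01 to 0.37, and *Batf* has pairs on both sides of 0.

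Levels were compared between genes per kb of exon, over the union of annotated exons, where the median gene tested was at 45.0 normalized counts per kb. *Fcer2a* was highest, with a mean of 1241 normalized counts per kb (SD 138, n = 6) and no overlap in range with the next. *Il4i1* at 1004 (SD 78.3) and *Il4ra* at 947 (SD 112) followed, and their ranges of 907 to 1109 and 800 to 1119 overlapped. *Batf* stood alone at 566 per kb (SD 41.2). Below it, *Stat6* at 252, *Jak1* at 226, *Il2rg* at 189, *Socs1* at 165 and *Jak3* at 122 normalized counts per kb formed a run in which each range overlapped the next. *Cish* was lowest at 44.7 per kb, with a range of 26.1 to 52.4, near the median gene. In percentiles of the genes tested, *Fcer2a*, *Il4i1*, *Il4ra* and *Batf* were at 97.4, 97.0, 96.8 and 95.2, the kinases, *Stat6*, *Il2rg* and *Socs1* at 77.8 to 89.3, and *Cish* at 49.8. Of the receptor chains, IL-4Rα thus had a transcript level per kb like that of *Il4i1*, and the gamma chain a lower one. The *Il2rg* value may be understated, because 30.5% of its exon bases are shared with *Gm20489* but were kept in its length. The place of *Il2rg* within the run is thus uncertain. The level and percentile of *Cish* may be understated too. The union of its annotated exons, 6419 bases, takes in nearly all of its locus from 107296026 to 107302784. *Il13ra1*, whose chain replaces the gamma chain in the type II receptor, was at 4.10 per kb, and *Il4*, *Il13* and the decoy receptor *Il13ra2* were at 0 in all 6 libraries, under the 3 fragments that a count of 0 allows.

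**Figure D3:**
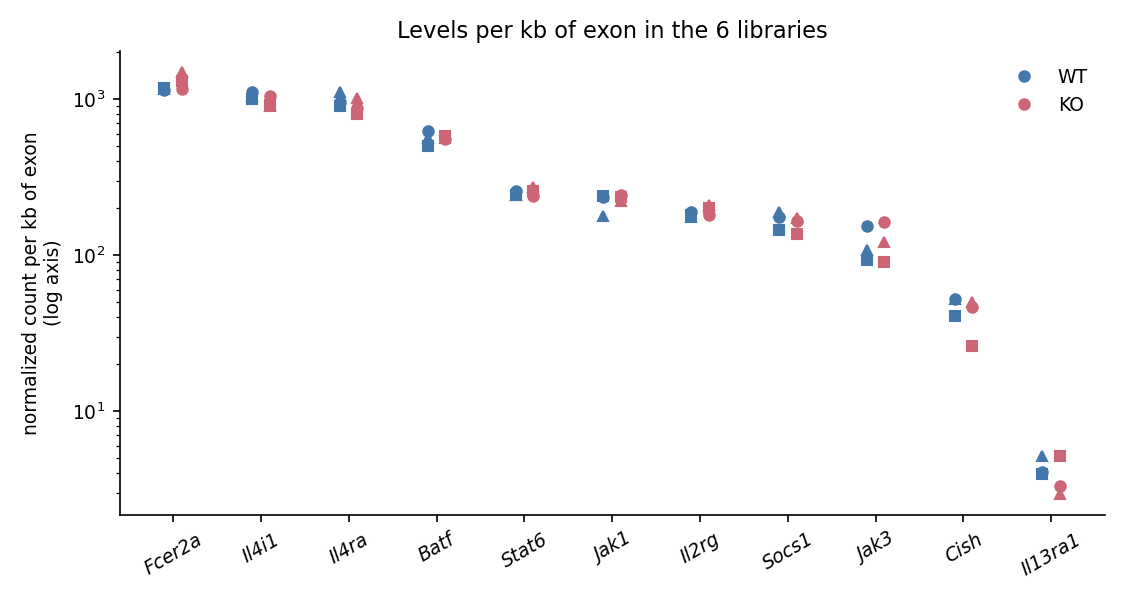
Normalized count per kb of exon (vertical log axis) of the 10 members and *Il13ra1* in each WT (blue) and KO (red) library, ordered by mean, with pair 1 as circles, pair 2 as squares and pair 3 as triangles. *Fcer2a*, *Il4i1* and *Il4ra* lie between 800 and 1497, the kinases, *Stat6*, *Il2rg* and *Socs1* between 91.0 and 272, and *Il13ra1* at 5.19 or less.

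Differences between the pairs were tested with limma's F-test of the replicate number in the same fit. *Jak3* passed (adjusted p = 0.0316), 1 of 10 members beside 1.15% of all genes. Its pair means were 851, 494 and 612 normalized counts, 1.72 times apart, and it ranked 100 of 12322 genes by this test. The call also held in edgeR (adjusted p = 0.0261) and DESeq2 (adjusted p = 0.0010), but not without the filter on low values (adjusted p = 0.119). By limma it was lost when pair 1 (adjusted p = 0.311) or pair 2 (adjusted p = 0.622) was left out, and held without pair 3 (adjusted p = 0.00071). These fits had fewer pairs and were chosen after the data were seen. At an unadjusted p under 0.05 the pairs differed for *Il4ra*, *Jak3*, *Socs1* and *Cish*, 4 of 10 members beside 12.5% of all genes. *Socs1* and *Cish* were lowest in pair 2, with pair means of 498, 409 and 530 for *Socs1* and of 318, 214 and 328 for *Cish*. The least variable between pairs were *Stat6* and *Il2rg*, whose highest pair mean was 1.04 times the lowest for each.

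Of the 6 plasma cell markers, 0 passed limma's F-test of the replicate number at an adjusted p of 0.05. *Sdc1*, *Prdm1*, *Xbp1*, *Irf4* and *Jchain* were lowest in both libraries of pair 2. *Slamf7* did not follow, with pair means of 1297, 1291 and 1370. *Prdm1*, the master factor of plasma cells, was at 206 and 207 in pair 2 and at 286 to 565 in the other pairs. *Irf4*, which partners with BATF, was at 1876 and 1828 in pair 2 and at 2647 to 3664 elsewhere. The adjusted p by limma's F-test was 0.287 for *Prdm1* and 0.114 for *Irf4*. For the same difference between pairs, edgeR gave 0.295 for *Prdm1* and 0.123 for *Irf4*. DESeq2 gave 0.0585 for *Prdm1* and 0.00013 for *Irf4*, so *Irf4* passed in DESeq2 alone. The part of *Prdm1* and *Irf4* in the levels of *Jak3*, *Socs1* and *Cish*, which were also lowest in pair 2, was not tested. Of the other genes of the pathway, *Il9r*, the IL-9 receptor chain that pairs with the gamma chain, differed most between the pairs, at 275, 707 and 189 in WT and at 272, 691 and 243 in KO (adjusted p = 0.0051 by limma's F-test). It was high in pair 2, where *Jak3* was low. *Il9r*, *Prdm1* and *Irf4* were chosen for mention after their values were seen.

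**Figure D4:**
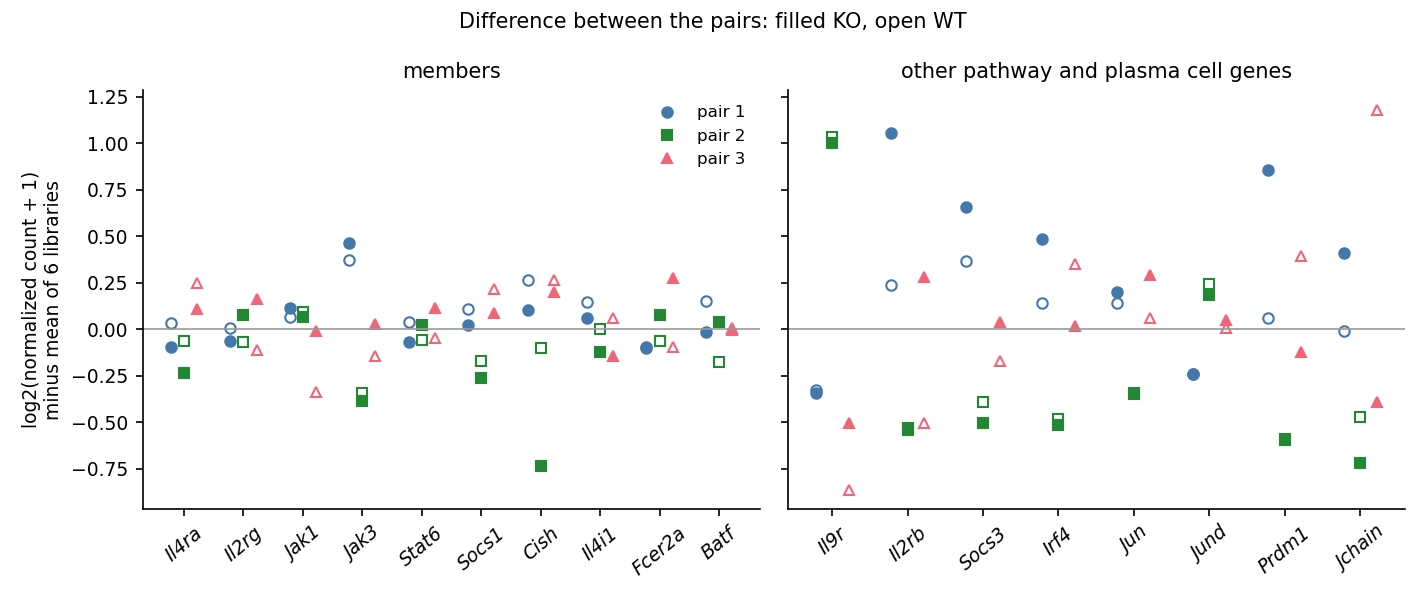
Log2(normalized count + 1) minus the mean of the 6 libraries (vertical axis) for the members (left) and for a selection of other pathway and plasma cell genes, not the full lists (right), in pair 1 (circles), pair 2 (squares) and pair 3 (triangles), filled for KO and open for WT. Both libraries of pair 2 are low for *Jak3*, *Socs1*, *Cish*, *Irf4* and *Prdm1* and high for *Il9r*.

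Likeness between members over the 6 libraries is given as Pearson's r of log2(normalized count + 1), a description over libraries that share genotype, pair and scaling. *Il4ra*, *Socs1* and *Cish* varied together and were each lower in KO in all 3 pairs, with r = 0.893 for *Il4ra* and *Socs1*, 0.818 for *Il4ra* and *Cish*, and 0.904 for *Socs1* and *Cish*. *Il2rg*, *Stat6* and *Fcer2a* also varied together, with r = 0.925, 0.900 and 0.817 for *Il2rg* and *Stat6*, *Il2rg* and *Fcer2a*, and *Stat6* and *Fcer2a*. *Il4i1* ran against *Fcer2a* (r = −0.878) although both are IL-4 induced, the one being lower and the other higher in KO in all 3 pairs, and *Il4ra* ran against *Jak1* (r = −0.795). The receptor chain *Il4ra* and *Stat6* were nearly unrelated (r = 0.128).

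Among the 7488 protein-coding genes whose mean reached 100 normalized counts, those most like *Il4ra* were *Zfp944* (r = 0.994), *Zdhhc6* (0.985) and *Med7* (0.981). For *Stat6* they were *Acsl1* (r = 0.977), *Hsd17b11* (0.976) and *Adamts10* (0.972), and for *Fcer2a* they were *Tacc1* (r = 0.985), *Pkmyt1* (0.968) and *Grsf1* (0.966). For *Batf* they were *Lzic* (r = 0.981), *Ginm1* (0.974) and *Papss1* (0.972). No other member was among the 3 most like genes of any of these. With 7488 genes ranked over 6 libraries and few of them members, this says little about whether the members vary together.

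The wider pathway was read from a list of 59 genes, of which 53 passed the minimum and 0 were called by limma, edgeR or DESeq2. By limma 7 of the 53 had an unadjusted p under 0.05 (13.2%, beside 4.7% of all genes). In all 3 pairs 6 were lower in KO (11.3%, beside 13.1%) and 9 higher (17.0%, beside 11.7%), and 7 had KO and WT values that did not overlap (13.2%, beside 6.83%). The log2 fold changes were negative for 19 and positive for 34 genes, beside 6135 and 6187 of all genes tested, with a median of 0.05, and ran from −0.97 for *Ighg1* to 0.54 for *Il2rb*. The middle 50% of all genes lay between −0.09 and 0.09.

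Of 6 other receptor chains that work with the gamma chain, the 5 that passed the minimum had positive fold changes, with a median of 0.22. The one left out, *Il7r*, was at 4.18 to 4.82 normalized counts in WT and 1.91 to 4.72 in KO, close to the worth of 3 fragments. Its normalized count was lower in KO in each pair, but in pairs 1 and 3 by less than 1 fragment was worth. *Il2rb*, shared by the IL-2 and IL-15 receptors, was at 283, 164 and 169 in WT and at 499, 166 and 291 in KO. It was far higher in KO in pairs 1 and 3 and equal in pair 2, for a log2 fold change of 0.54 (95% interval 0.13 to 0.94, unadjusted p = 0.0168, adjusted p = 0.970 by limma). *Il21r* was the smallest of the 5, at 0.07.

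The other kinases *Jak2* and *Tyk2* differed by −0.02 and 0.05 on the log2 scale. All 6 other STAT genes had positive fold changes, from 0.02 for *Stat5b* to 0.23 for *Stat4*, with a median of 0.12, and none passed the adjusted threshold. *Stat4*, the factor that IL-12 activates, was at 308, 301 and 277 in WT and at 328, 360 and 352 in KO (unadjusted p = 0.0351, adjusted p = 0.970 by limma), without overlap. *Stat3*, named after its values were seen, was the other STAT gene without overlap, at 1633 to 1775 in WT and 1790 to 1944 in KO. That made 2 of 6 without overlap (33.3%, beside 6.83% of all genes). In all 3 pairs 2 of the 6 were higher in KO (33.3%, beside 11.7% of all genes) and 0 lower (0.0%, beside 13.1%).

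Of the adaptors and PI3K subunits that link the receptor to growth signals, 5 of 6 passed the minimum. *Irs1* did not, while *Irs2*, the adaptor that IL-4Rα engages in lymphocytes, was at 143 to 228 in WT and 133 to 221 in KO. *Shc1* was lower in KO in all 3 pairs, at 453, 419 and 514 in WT and at 379, 381 and 410 in KO, without overlap (log2 fold change −0.24, unadjusted p = 0.0192, adjusted p = 0.970 by limma). *Pik3cd*, the leukocyte PI3K catalytic subunit, was the most positive at 0.11. Among 16 inhibitors and phosphatases, 5 were negative and 11 positive, from −0.28 for *Socs2* to 0.26 for *Pias3*, and 0 had an unadjusted p under 0.05. *Socs2* was at 1728 in WT replicate 3 and between 954 and 1063 in the other 5 libraries.

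Of 12 other IL-4 responsive genes of B cells, 5 had negative and 7 positive fold changes, with a median of 0.04. In all 3 pairs 4 were lower in KO (33.3%, beside 13.1% of all genes) and 1 was higher (8.33%, beside 11.7%). *Ighg1*, the IgG1 heavy chain constant gene that IL-4 makes accessible for switching, was at 28266, 29341 and 54594 in WT and at 19261, 17735 and 17684 in KO, without overlap. Its log2 fold change was −0.97 (95% interval −1.44 to −0.49, unadjusted p = 0.0022), with an adjusted p of 0.693 by limma. Without replicate 1 it was −1.18 (adjusted p = 0.0040 by limma), without replicate 2 −1.09 (adjusted p = 0.984), and without replicate 3 −0.64 (adjusted p = 0.0855). That *Ighg1* was lower in KO was already known from earlier results of these data. *H2-Aa* and *H2-Ab1*, the MHC class II chains that IL-4 raises, had log2 fold changes of −0.20 and −0.19 (unadjusted p = 0.0337 and 0.0399, adjusted p = 0.970 for both by limma), and were named after their values were seen. *Xbp1* was the most positive at 0.19. *Ighe*, the IgE constant gene, was at 1509, 2414 and 3265 in WT and at 1284, 2974 and 1693 in KO, with no common direction over the pairs. Thus *Fcer2a* on the one hand and *Il4i1*, *Ighg1*, *H2-Aa* and *H2-Ab1* on the other, all IL-4 responsive, had fold changes of opposite sign, and none of them passed the adjusted threshold.

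The genes related to BATF were split in sign. Of 7 BATF, IRF and JUN genes 6 passed the minimum, with *Batf2* at 0 in all libraries, and 3 were negative and 3 positive. They ran from −0.01 for *Irf8* to 0.20 for *Batf3*, beside the 0.01 of *Batf* itself, so the negative ones were small. In all 3 pairs 2 of the 6 were higher in KO (33.3%, beside 11.7% of all genes) and 0 lower (0.0%, beside 13.1%). *Junb*, named after its values were seen, was at 0.15 (95% interval 0.0022 to 0.30, unadjusted p = 0.0475, adjusted p = 0.970 by limma). *Irf4* was at −0.0091 (95% interval −0.30 to 0.29).

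**Figure D5:**
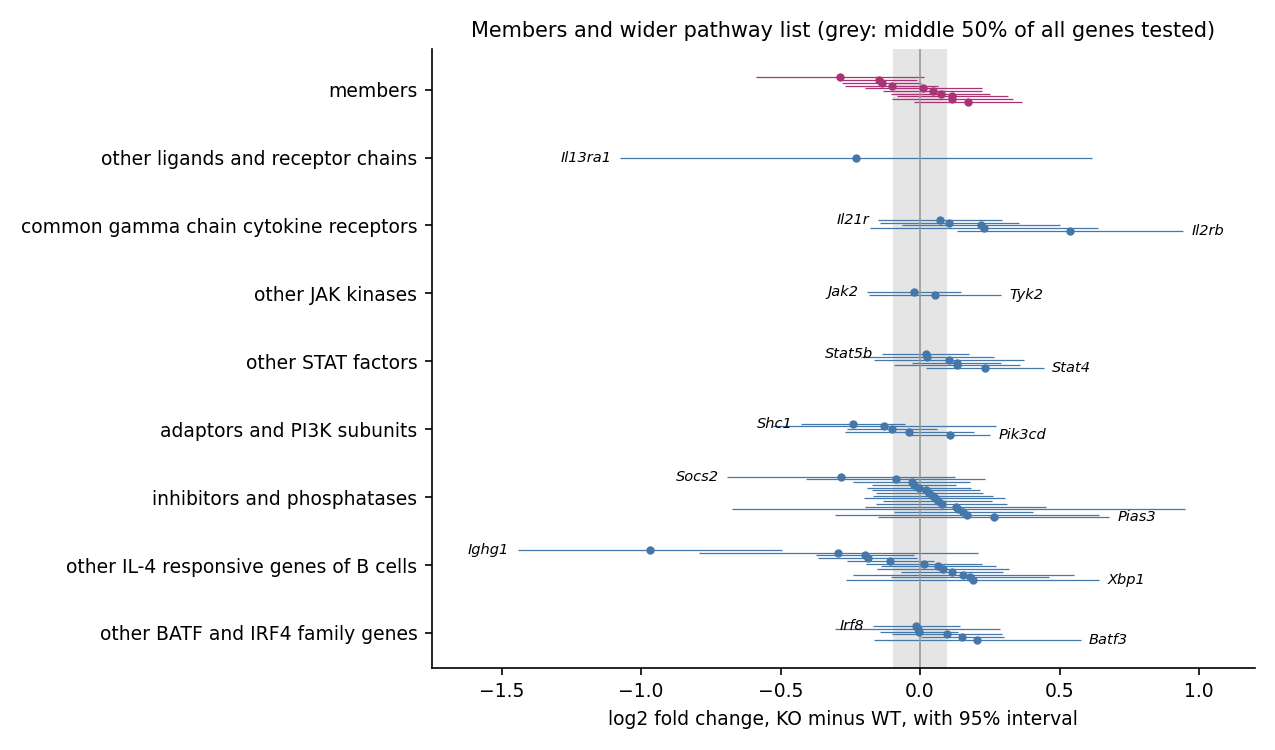
Log2 fold change, KO minus WT (horizontal axis), with 95% intervals for the 10 members (purple) and the 53 genes of the wider list that passed the minimum (blue), by group, with the lowest and highest of each group named and the middle 50% of all genes tested in grey. The members lie between −0.29 and 0.17, *Ighg1* lies at −0.97 and *Il2rb* at 0.54.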

How the data were processed

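RNA was depleted of rRNA and made into strand-specific libraries (dUTP method), which were sequenced as 75-nt pairs. The authors trimmed the reads with cutadapt, aligned them to GRCm38 (mm10) with STAR 2.6.1a, and counted properly paired fragments on exons with featureCounts of Subread 1.6.3 (mapping quality of at least 10, reverse strand, Gencode vM19). They divided the counts by DESeq2 size factors, and this deposited signal, normalized counts for 54446 genes, was used here. The fragments were recovered from the steps of the values (100% whole, within 0.001 times the square root of the number). Gencode vM21 gave loci and exon lengths for 54409 of the genes. Because libraries were scaled to a common median, a shift shared by most transcripts cannot be seen.

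KO and WT were compared with limma 3.58.1 (R 4.3.3) on log2(normalized count + 1), which understates changes of low genes, over the 12322 genes whose mean reached 10. Genotype and replicate number were in the model, as in the methods of the study. P-values are two-sided and adjusted by Benjamini-Hochberg over all genes, with a threshold of 0.05. The number pairs the libraries because it marks littermates. Deviations from the group means correlated within pairs (0.328, 0.685 and 0.170), though KO replicate 3 correlated more with WT replicate 1 (0.282). No libraries were duplicates, with chi-square per gene of 4.44 to 22.0. The fits with edgeR 4.0.16 and DESeq2 1.42.0 used recovered fragments. The scripts were tested on simulated data.

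The members and lists were chosen with earlier results of these data known. The text names the members, the extremes of each group of the wider list, genes past an adjusted p of 0.05, and the 3 genes most like *Il4ra*, *Stat6*, *Fcer2a* and *Batf*. It also names *Tent5c*, the sex-linked genes and cell type markers. *Irs2*, *Ighe* and genes below the minimum fall outside this rule and carry no mark. Remaining genes are marked in the text as chosen later.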

Additional observations from a re-analysis of the deposited data

How the results depend on the processing

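The log2 fold changes of the 10 members were recomputed under alternatives of pseudocount, filter, scaling, pairing, test and left-out replicate. Of 140 values 138 kept their direction and 0 passed an adjusted p of 0.05. With 1 replicate left out, *Stat6* was −0.012 without replicate 3 and at most 0.12, and *Batf* was −0.090 without replicate 2 and at most 0.10. The other members ranged from −0.16 to −0.13 for *Il4ra*, 0.04 to 0.21 for *Il2rg*, 0.0096 to 0.19 for *Jak1*, 0.02 to 0.13 for *Jak3*, −0.11 to −0.09 for *Socs1*, −0.40 to −0.12 for *Cish*, −0.16 to −0.11 for *Il4i1* and 0.07 to 0.25 for *Fcer2a*. Without the replicate block, which ignores the pairing of littermates, 0 members were called, *Il4ra* was −0.15 with an adjusted p of 1.00, and no call changed. Over all genes, the counts of lower and higher calls were 22 and 1 in DESeq2, while leaving out 1 replicate gave 0 to 168 lower and 0 to 3 higher, the highest of each without replicate 1. The wider list gave 0 to 1 lower call with 1 replicate left out, *Ighg1* without replicate 1. Between the pairs, 0 members were called without the filter on low values, and 0 to 2 with 1 replicate left out. *Jak3* was lost without replicates 1 and 2 (adjusted p = 0.311 and 0.622 by limma). Without replicate 3 *Jak3* held (adjusted p = 0.00071 by limma) and *Cish* passed (adjusted p = 0.0308 by limma). The cause was not tested. With 3 pairs, the 95% interval of a member extended 0.14 to 0.30 to each side of its log2 fold change, before any adjustment over genes. After it, larger differences went uncalled too, such as the −0.97 of *Ighg1*.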
